A study of Mus musculus with 12 samples.

Results

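Alveolar macrophages taken 7 days after removal of 70% of the liver were compared with those of mice whose liver was intact. The comparison holds the 3 arrays whose titles give day 7 and the 3 whose titles give an intact liver, 6 of the 12 arrays in the series, and all 22206 probe sets that are not controls. Both groups are male C57 Black mice whose cells were pulled from the lung with magnetic beads carrying an antibody to Siglec-F, a lectin of alveolar macrophages that eosinophils also carry. The treatment label has a further sentence on macrophages cultured with other cells or factors, which matches no sample title and was not used. The remaining groups, 3 arrays at day 1 and 3 at day 3 after the same operation, entered the same statistical model. The labels call the replicates biological, and the age of the mice and the number of animals behind an array are not given in the sources used here. The controls are described as intact animals, so an effect of surgery and an effect of losing liver tissue cannot be told apart here. Values are log2 signals on Clariom S mouse arrays, on which a difference of 1 is a 2-fold difference.

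Alveolar macrophages live in the air spaces of the lung, where they take up spent surfactant, inhaled particles and dying cells. Their identity is kept by GM-CSF from the alveolar epithelium and by the nuclear receptor PPAR-gamma. After partial resection the liver regrows from the cells that remain, with cytokines such as IL-6 and TNF and growth factors such as HGF among the known signals, and the lung is exposed to what the regenerating liver and the wound release into the blood.

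The array controls differed between the groups. The 3 exon and intron separation values of day 7 spanned 0.837 to 0.880, against 0.878 to 0.888 on the intact arrays, where 1 would be perfect separation of signal from background. Day 7 replicate 2 was 1 of the 3 arrays of lowest separation in the series, with day 1 replicate 2 and day 3 replicate 1. A labelling control, dap, was 2.38, 7.77 and 6.47 on day 7 replicates 1, 2 and 3 and lay between 2.13 and 2.40 in the intact group, so 2 of the 3 day 7 arrays carried it and none of the intact arrays did. Day 3 replicate 1 carried it too. For many lists whose medians move by over 1.5 times, medians are given with this control as a block or without the 3 arrays that carry it. The second setting leaves 1 day 7 array. Not every such move is given, so a list printed without these values is not thereby stable. Both settings were added after the data were seen. The median of the intron controls, a measure of background, lay between 2.39 and 2.55 on the 6 arrays and their 95th percentile between 5.01 and 5.49. With 3 arrays a group, precision is limited by that number.

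At day 7, 4 genes passed the test against intact, and all 4 fell. They were Sftpd, Col3a1, Mxra8 and Dpt, which made up 0.018% of the probe sets tested, and no probe set passed in the upward direction (0%). Sftpd encodes surfactant protein D, a lectin of the alveolar lining made by type 2 alveolar and airway cells. Col3a1 encodes the collagen III chain of loose connective tissue, Dpt encodes dermatopontin, a small matrix protein, and Mxra8 encodes a cell surface protein of fibroblasts. Their best known sources are cells other than macrophages.

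Sftpd was 4.24, 4.38 and 4.94 in intact replicates 1, 2 and 3 and 2.59, 2.54 and 2.49 at day 7. The day 7 values lay close to the median of the intron controls, and the groups did not overlap. The fall was 1.98 on the log2 scale (a difference of -1.98 ± 0.21, SE of the fit, n = 3 against 3), with an adjusted p of 0.00965 by limma. Col3a1 was 4.34, 5.23 and 5.19 in the intact group and 2.53, 2.95 and 2.97 at day 7. Its lowest intact value, in replicate 1, was still above every day 7 value, and the difference was -2.10 ± 0.25 (adjusted p = 0.0249). Mxra8 was 4.15, 4.43 and 4.27 in the intact group and 2.16, 2.64 and 2.14 at day 7, a difference of -1.97 ± 0.25 (adjusted p = 0.0271). Dpt was 5.17, 5.72 and 6.13 in the intact group and 3.60, 3.45 and 3.27 at day 7, a difference of -2.23 ± 0.29 (adjusted p = 0.0271). The measured fold was 3.95 for Sftpd, 4.29 for Col3a1, 3.91 for Mxra8 and 4.70 for Dpt. In each of the 4 genes the day 7 values lay under the 95th percentile of the intron controls, and for Sftpd and Mxra8 the intact values did too, so these folds are measured near background. In these sorted bulk samples, fewer cells of a type and less RNA per cell cannot be told apart.

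The count of calls depended on single arrays. None passed without day 7 replicate 2, day 7 replicate 3 or intact replicate 2, when 1265, 1036 and 845 probe sets had an unadjusted p under 0.05, and 18 passed without day 1 replicate 2. Without day 3 replicate 1 there were 8, without day 1 replicate 1, day 7 replicate 1 or day 3 replicate 2 there were 2, and without day 1 replicate 3 or intact replicate 3 there was 1. When the 3 arrays of lowest separation were left out together, a choice made after the data were seen, 280 probe sets passed, 47 of them higher and 233 lower at day 7 (0.212% and 1.05%). Fitted on the 2 groups alone, 48 passed, 10 higher and 38 lower. An exact permutation test of 3 against 3 arrays cannot go below p = 0.1.

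Beyond the calls, the balance of the comparison leaned toward lower values at day 7. Unadjusted p-values under 0.05 were seen for 434 probe sets that were higher (1.95%) and 831 that were lower (3.74%), where 1110 in all would be given by chance. This split moved with the scaling: the higher probe sets made up 34.3% of those under 0.05 as deposited, 47.5% after a further quantile normalization and 53.1% after median centring. Groups of 3 that did not overlap were found for 1357 probe sets that were higher (6.11%) and 1809 that were lower (8.15%). Counted once per gene, 1138 of 19505 genes were higher without overlap (5.83%) and 1622 lower (8.32%), and the median difference of all genes was -0.01.

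**Figure D1:**
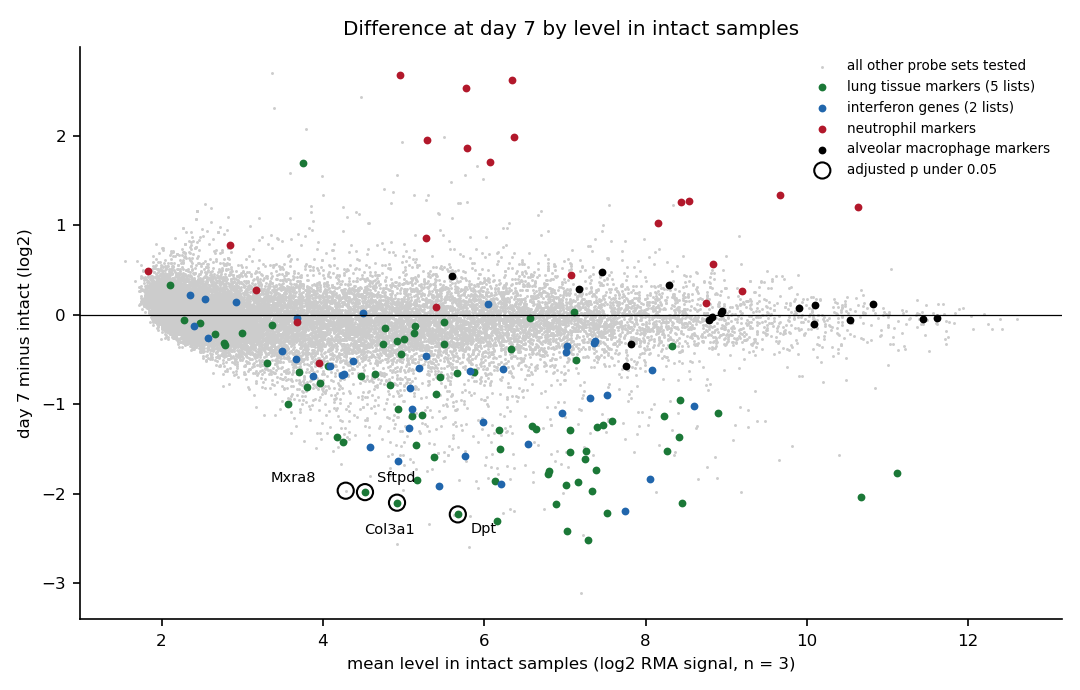
Difference between day 7 and intact for each tested probe set (y axis, log2) against its mean level in the intact group (x axis, log2 RMA signal, n = 3). Circles mark the 4 genes that passed, at intact means from 4.28 for Mxra8 to 5.67 for Dpt; lung tissue markers (green) and interferon genes (blue) lie mostly below 0, neutrophil markers (red) mostly above it, and alveolar macrophage markers (black) along it.

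None of the other genes with a lower mean passed the test, and those with the smallest p-values among them are given next, with Ifit3b among the interferon genes. Icos, the inducible costimulator of activated T cells, was 5.40, 4.54 and 5.36 in the intact group and 3.47, 2.99 and 3.51 at day 7 (-1.77 ± 0.27, adjusted p = 0.0852). Adh1, an alcohol dehydrogenase that also oxidises retinol, was 5.25, 5.76 and 6.48 against 3.37, 3.52 and 3.85 (-2.25 ± 0.35, adjusted p = 0.0857). Gzma, the granzyme A of cytotoxic lymphocytes, was 5.04, 5.88 and 6.52 against 3.17, 3.01 and 3.47 (-2.60 ± 0.44, adjusted p = 0.14). For these 3 genes the groups lay well apart, by more than 1 unit between the lowest intact and the highest day 7 array. Ccl5, a chemokine that draws T cells and eosinophils, had intact values of 5.53, 5.34 and 5.64 and day 7 values of 4.37, 3.10 and 4.11 (-1.64 ± 0.28, adjusted p = 0.14).

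None of the genes with a higher mean passed either, and the 10 with the smallest p-values among those without overlap follow. Mrgpra2b, a G protein-coupled receptor of neutrophils, was 6.95, 6.28 and 5.82 in the intact group and 8.89, 9.57 and 8.46 at day 7 (2.63 ± 0.42, adjusted p = 0.0976). Every day 7 array lay above every intact array by more than 1 unit. Mmp9, gelatinase B of neutrophil granules, was 5.95, 5.04 and 4.87 against 7.31, 7.46 and 6.95 (1.95 ± 0.34, adjusted p = 0.14). Ccr3, the eotaxin receptor of eosinophils, was 3.60, 3.01 and 3.48 against 4.96, 7.16 and 6.10 (2.71 ± 0.48, adjusted p = 0.14). The intact values of Ccr3 lay within the range of the intron controls, and its day 7 values were the most scattered of these 3 genes, with replicate 2 highest. Others in this rank were Stfa2, Stfa2l1, Cstdc5 and Cstdc6, members of the stefin A family of cysteine protease inhibitors, with differences of 2.53, 1.99, 1.59 and 2.31. Cxcr2, the receptor for neutrophil-attracting chemokines, differed by 1.71, and Padi4, the enzyme that citrullinates histones in neutrophils, by 1.04. Slc40a1 encodes ferroportin, the only known iron exporter of cells, and was 4.18, 3.77 and 4.03 in the intact group against 5.82, 5.04 and 5.79 at day 7 (1.55 ± 0.33, adjusted p = 0.256).

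**Figure D2:**
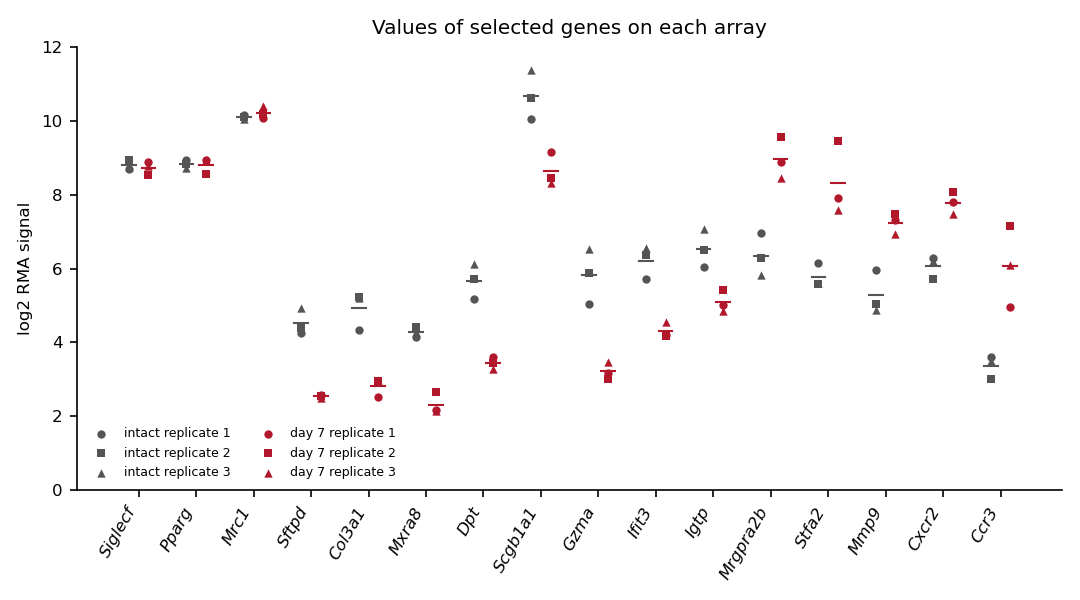
Log2 RMA signal (y axis) of 16 genes on each intact array (grey) and each day 7 array (red); circle, square and triangle are replicates 1, 2 and 3, and short lines are group means. Siglecf, Pparg and Mrc1 overlap between the groups, whereas the groups are apart for the other 13 genes, of which the 4 from Sftpd to Dpt passed the test.

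The genes that define the sorted cells differed little between the groups. Siglecf, the target of the sorting antibody, was 8.69, 8.94 and 8.75 in the intact group and 8.89, 8.54 and 8.77 at day 7 (-0.06 ± 0.20). Pparg was 8.93, 8.84 and 8.71 against 8.93, 8.55 and 8.94 (-0.02 ± 0.18), and Mrc1, the mannose receptor, 10.16, 10.10 and 10.05 against 10.06, 10.19 and 10.40 (0.11 ± 0.21). In each of these 3 genes the groups overlapped. Of 17 measured alveolar macrophage markers, 8 had a lower and 9 a higher mean at day 7, none passed, and the median difference was 0.02, beside -0.01 over all genes. This median ran from -0.04 without day 7 replicate 3 to 0.19 without day 7 replicate 2, when 13 of the 17 had a higher mean, and was 0.13 with the labelling control as a block. The extremes were Cidec, a lipid droplet protein (-0.57 ± 0.31), and Marco, a scavenger receptor (0.48 ± 0.31). Chil3, a chitinase-like protein, and Plet1, a surface marker of these cells, differed by -0.04 and -0.05. The mean of the 17 markers was 9.14, 9.15 and 8.91 on the intact arrays and 9.28, 8.79 and 9.24 at day 7, where day 7 replicate 2, of low separation, was the lowest of the 6. Siglecf, Pparg and Mrc1 were thus far above the intron controls on all 6 arrays, as the labelled cell type has them.

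Genes of the lung's epithelium were lower at day 7 as a group, although Sftpd alone passed among them. Of 14 measured type 2 alveolar cell markers, 13 had a lower mean, 9 without overlap between the groups, and the median difference was -1.28. Of all genes, 52.7% had a lower mean and 8.32% were lower without overlap. Sftpc, the surfactant protein made only by type 2 cells, was 10.81, 11.33 and 11.20 in the intact group against 9.15, 9.96 and 8.95 at day 7 (-1.76 ± 0.75). It was still far above background on all 6 arrays. Sftpa1 and Muc1, a further surfactant protein and an epithelial mucin, differed by -2.11 ± 0.69 and -1.59 ± 0.28. All 12 type 1 alveolar cell markers had a lower mean, 6 without overlap (median -0.67), with Emp2, a membrane protein of thin alveolar cells, at -1.73 ± 0.45 and Ager at -1.23 ± 0.45.

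The airway epithelium gave a similar reading. Of 15 markers, 13 had a lower mean, 9 without overlap (median -1.19), beside 52.7% and 8.32% of all genes. The other 2 had a higher mean, both without overlap, beside 5.83% of all genes. Scgb1a1, the secretoglobin of club cells, was 10.05, 10.61 and 11.37 in the intact group and 9.15, 8.45 and 8.32 at day 7 (-2.03 ± 0.36, adjusted p = 0.14). Aldh1a1, a retinal dehydrogenase, was 5.14, 6.35 and 6.98 against 3.90, 3.83 and 3.84 (-2.30 ± 0.59). The intact values spread over more than 1 unit in both genes, with replicate 3 highest, while the day 7 values of Aldh1a1 were nearly equal. Bpifa1, a protein of airway surface fluid, differed by -1.75 ± 0.35 and Tppp3, a microtubule protein of ciliated cells, by -1.28 ± 0.33. Epcam, an adhesion molecule of epithelia, was 1 of the 2 that went the other way. It moved from 4.53, 3.54 and 3.20 to 5.88, 5.62 and 4.88 (1.70 ± 0.39, adjusted p = 0.314).

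All 18 endothelial markers had a lower mean at day 7, 9 without overlap, beside 8.32% of all genes, with a median difference of -1.13 and no call. Kdr, the VEGF receptor of endothelium, was 6.74, 7.53 and 7.50 in the intact group against 5.48, 6.26 and 5.17 (-1.62 ± 0.52), and Vwf, the clotting factor of vessel walls and platelets, was 4.58, 5.34 and 5.40 against 4.17, 3.89 and 3.89 (-1.13 ± 0.35). Pecam1, an adhesion molecule of endothelium, overlapped between the groups, with 6.73, 7.88 and 7.57 against 5.83, 6.95 and 5.64. All 19 fibroblast and smooth muscle markers also had a lower mean, 10 without overlap (median -1.0), and Col3a1 and Dpt among them passed. Dcn, the matrix proteoglycan decorin, had the largest difference of this list (-2.52 ± 0.89), followed by Inmt, a methyltransferase (-2.42 ± 0.87), but each varied too much between arrays to pass. The smooth muscle genes Tagln, Cnn1 and Myh11 differed by -0.34, -0.21 and -0.12 with overlap, at intact levels under the 95th percentile of the intron controls, and Acta2, smooth muscle actin, by -0.89 with overlap.

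Without the 3 arrays of lowest separation, 7 of the 14 type 2, 4 of the 12 type 1, 4 of the 15 airway, 11 of the 18 endothelial and 9 of the 19 fibroblast and smooth muscle markers passed, all lower, beside 1.12% of all genes. The mean level of the endothelial markers ranged from 5.67 to 6.49 on the intact arrays and from 4.77 to 5.63 at day 7. For the type 2 markers these ranges were 6.27 to 6.59 and 5.23 to 5.47, and for the fibroblast and smooth muscle markers 4.79 to 5.48 and 3.87 to 4.15. Sftpd, Col3a1 and Dpt are themselves members of these lists, so the calls and the lists are not separate observations. The part of lung tissue RNA in the result was not tested. With the labelling control as a block the medians were -1.97 for type 2, -1.80 for endothelial and -0.75 for airway markers, and without the arrays that carry it -1.48, -1.28 and -0.72.

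Markers of neutrophils were higher at day 7. Of 23 measured, 21 had a higher mean, 15 without overlap, beside 5.83% of all genes without overlap in that direction, and the median difference was 1.03. None passed on all 12 arrays, and 7 passed, all higher, without the 3 arrays of lowest separation, beside 0.226% of all genes. S100a8 and S100a9, the paired subunits of calprotectin, were 9.13, 8.12 and 8.38 against 9.88, 10.29 and 9.28 (1.27 ± 0.41) and 8.59, 8.35 and 8.38 against 9.59, 10.26 and 9.27 (1.26 ± 0.36). In both genes day 7 replicate 2 was the highest of the 6 arrays. Retnlg, a resistin-like protein of neutrophils, was already high in the intact group, at 10.41, 10.37 and 11.13, and was 11.63, 12.08 and 11.82 at day 7 (1.21 ± 0.27). Lcn2, the iron-siderophore binding lipocalin, was 9.85, 9.10 and 10.07 against 11.05, 11.26 and 10.74 (1.34 ± 0.35), and Mmp8, neutrophil collagenase, differed by 1.86 ± 0.59.

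Some granule proteins of the neutrophil list did not share this shift, although Mmp9, also of neutrophil granules, did. Camp (cathelicidin), Elane (neutrophil elastase), Ltf (lactoferrin), Ngp and Mpo (myeloperoxidase) differed by -0.53, -0.08, 0.09, 0.14 and 0.28, and the groups overlapped in each. Camp, Elane and Mpo had intact means of 4.0, 3.7 and 3.2, within the range of the intron controls. The mean of the 23 markers was 6.52, 6.20 and 6.33 on the intact arrays and 7.52, 7.73 and 7.04 at day 7, without overlap. The part of neutrophils among the sorted cells in these values was not tested.

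Eosinophil markers, which the sort by Siglec-F could hold, did not move as one list. The receptors Ccr3 and Il5ra, the latter the interleukin-5 receptor chain of eosinophils, were higher without overlap, with Il5ra at 2.47, 2.51 and 2.62 in the intact group and 3.13, 4.39 and 3.80 at day 7 (1.24 ± 0.28, adjusted p = 0.312). Siglece, an inhibitory lectin of granulocytes and macrophages, differed by 1.13 ± 0.39. The granule proteins Prg2 (major basic protein) and Epx (eosinophil peroxidase) differed by -0.27 ± 0.69 and -0.27 ± 0.70, with intact replicate 3 the highest of the 6 arrays in both. Of the 9 markers, 6 had a higher mean, 4 of them without overlap, beside 47.3% and 5.83% of all genes. The median difference of 0.24 ran from 0.05 without intact replicate 1 to 0.69 without intact replicate 3. It was 0.14 without the arrays that carry the labelling control.

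Markers of other blood cells had mostly lower means. Of 19 T and NK cell markers, 15 were lower, 7 without overlap (median -0.27; 8.32% of all genes were lower without overlap), none passed, and Gzma, Ccl5 and Gzmb (granzyme B, -1.52 ± 0.29) had the largest differences. The T cell receptor chains Cd3e, Cd3g and Cd3d differed by -0.89, -0.52 and -0.29, at intact means of 3.6, 3.4 and 2.8, and Cd4 differed by 0.55. Among basophil and mast cell markers, Mcpt8, the basophil protease, was 3.65, 4.02 and 7.08 against 2.21, 2.22 and 2.63 (-2.57 ± 0.68), so that intact replicate 3 carried much of that difference. Ly6c2, the Ly6C antigen of classical monocytes, was 8.63, 9.20 and 9.74 against 7.41, 7.26 and 6.96 (-1.98 ± 0.44, adjusted p = 0.298), and Ccr2, the receptor that takes monocytes into tissue, differed by -1.21 ± 0.45 with overlap. The list of monocyte and interstitial macrophage markers as a whole did not lean this way, with 10 of 19 lower and a median difference of -0.03 (-0.22 without day 7 replicate 1, 0.12 without day 7 replicate 3 and 0.02 after median centring and 0.12 with the labelling control as a block), and its complement genes C1qa, C1qb and C1qc differed by 0.02, 0.54 and 0.38.

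**Figure D3:**
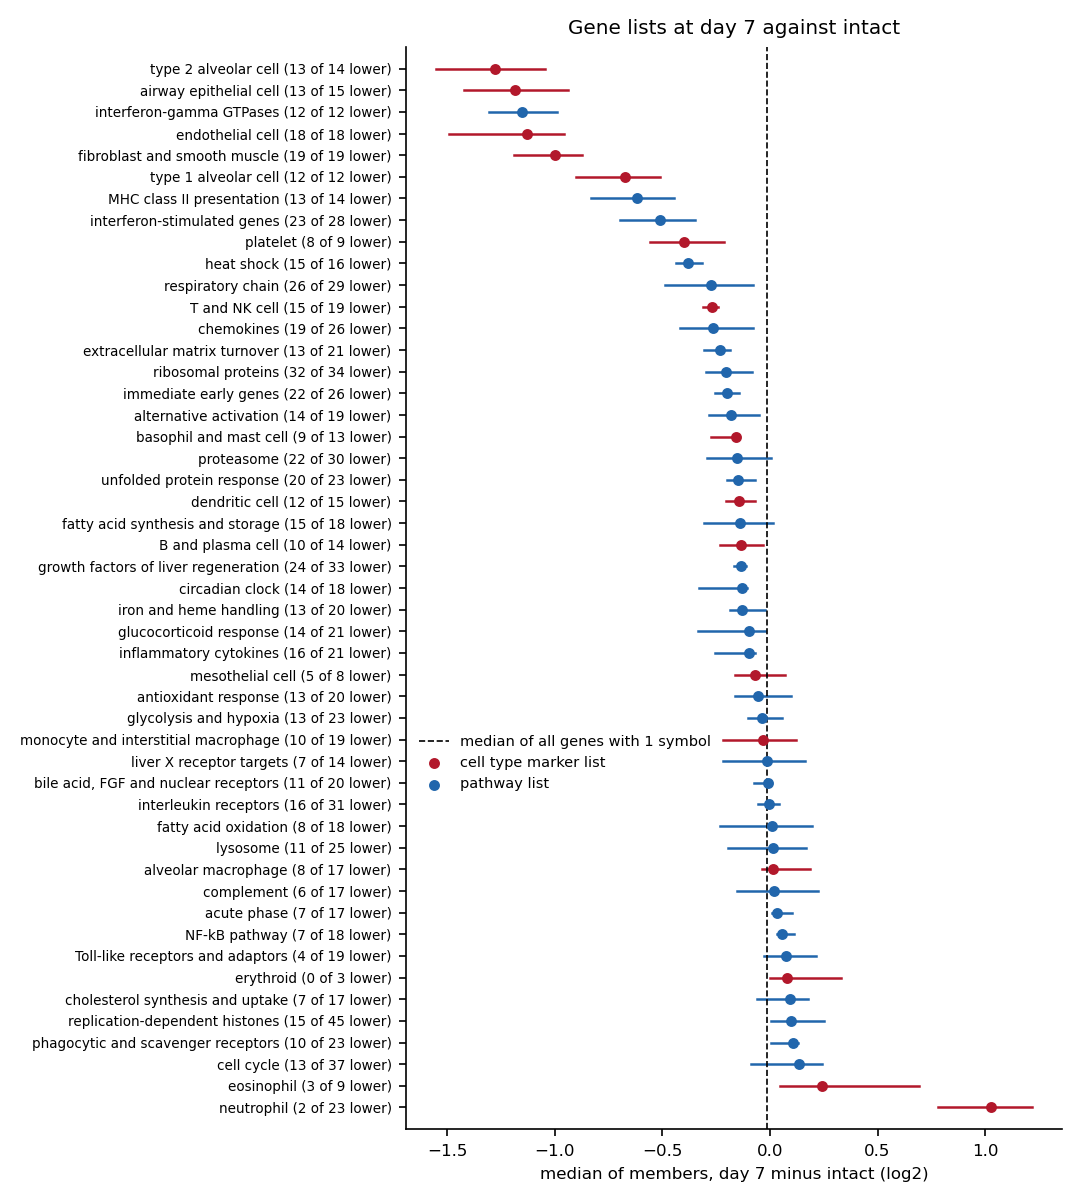
Median difference of the members of each of 49 gene lists (points; x axis, day 7 minus intact, log2), with the range when each of the 6 intact and day 7 arrays is left out in turn (lines), for cell type markers (red) and pathways (blue). The dashed line is the median of all genes, -0.01; type 2 alveolar markers are lowest at -1.28 and neutrophil markers highest at 1.03, and neither range crosses 0.

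Among the pathway lists the lowest median was that of the interferon-gamma GTPases. Interferons signal through STAT transcription factors to switch on antiviral genes, such as the Ifit, Oas and Mx families, and interferon-gamma adds GTPases of the IRG and GBP families, which attack vacuoles that hold microbes. Of 12 measured interferon-gamma GTPases, all 12 had a lower mean at day 7, 11 without overlap, and the median difference was -1.15. Of 28 interferon-stimulated genes, 23 had a lower mean, 13 without overlap, with a median of -0.51 (-0.29 with the labelling control as a block and -0.14 without the arrays that carry it, when 18 of the 28 had a lower mean). For comparison, 52.7% of all genes had a lower mean and 8.32% were lower without overlap. No member of either list passed on all 12 arrays, and 7 of the GTPases and 3 of the interferon-stimulated genes did, all lower, without the 3 arrays of lowest separation, beside 1.12% of all genes.

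Ifit3 and Ifit3b encode near-identical RNA-binding antiviral proteins, and their probe sets may share signal. Ifit3 was 5.70, 6.35 and 6.55 in the intact group and 4.20, 4.18 and 4.55 at day 7 (-1.89 ± 0.33, adjusted p = 0.14), and Ifit3b was 4.75, 5.69 and 5.87 against 3.29, 3.48 and 3.83 (-1.91 ± 0.29, adjusted p = 0.0857). In both the lowest intact array was above the highest day 7 array. Igtp, an IRG family GTPase, was 6.05, 6.51 and 7.06 against 5.02, 5.43 and 4.85 (-1.44 ± 0.36), and Tgtp2, another of that family, 7.30, 7.72 and 8.23 against 5.82, 6.14 and 4.70 (-2.20 ± 0.71). Gbp3, a guanylate-binding protein, was 6.77, 6.95 and 7.17 against 5.95, 5.84 and 5.79 (-1.10 ± 0.27), with a tight spread in both groups. Others lay close to 0, among them Oas2 at -0.04, Oas3 at 0.18 and Mx1 at 0.23, all near background, and Oasl2 at 0.12. Cxcl9 and Cxcl10, chemokines that interferon-gamma induces, differed by -0.29 ± 1.02 and -1.02 ± 0.46 and overlapped between the groups.

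The start regions of 6 of these genes are shown because many interferon-induced genes carry a known sequence element there. The interferon-stimulated response element is known as a pair of GAAA repeats, and the motif GAAANNGAAA, read on either strand (TTTCNNTTTC on the other), was searched in the RefSeq windows from 250 bases before to 50 bases after each start site on GRCm38.p6. It was found in 1131 of 32851 windows (3.44%). Counted by gene, where any window of a gene could match, it was found in 1079 of 27025 genes (3.99%). Each line gives up to 60 bases around the first match, 5′ to 3′ on the gene's strand, with the motif in capitals.

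Ifit3: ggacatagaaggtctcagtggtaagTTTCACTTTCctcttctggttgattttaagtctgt
Ifit3b: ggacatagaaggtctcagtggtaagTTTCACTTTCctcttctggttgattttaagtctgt
Ifit1: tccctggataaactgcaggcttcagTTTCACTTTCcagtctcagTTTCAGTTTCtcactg
Igtp: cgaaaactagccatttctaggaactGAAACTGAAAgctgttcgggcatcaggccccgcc
Tgtp2: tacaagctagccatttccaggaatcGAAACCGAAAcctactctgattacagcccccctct
Gbp3: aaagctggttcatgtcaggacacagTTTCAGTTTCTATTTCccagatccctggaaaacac

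These stretches lie at chr19:34583348-34583407 on the plus strand (Ifit3), chr19:34607744-34607803 on the plus strand (Ifit3b), chr19:34640760-34640819 on the plus strand (Ifit1), chr11:58199497-58199555 on the plus strand (Igtp), chr11:49064248-49064307 on the minus strand (Tgtp2) and chr3:142559974-142560033 on the plus strand (Gbp3). The windows of Ifit3 and Ifit3b are the same in all 60 bases. Among list members with a window, the motif was present in 14 of 21 interferon-stimulated genes (66.7%) and 7 of 7 interferon-gamma GTPases (100%), against 0 of 21 neutrophil, 0 of 7 endothelial, 0 of 9 fibroblast and smooth muscle and 1 of 11 type 2 alveolar markers. The 14 interferon-stimulated genes with the motif had a median difference of -0.64 and the 7 without it -0.29, with ranges of -1.91 to 0.18 and -0.82 to 0.14 that overlap. A match describes the letters in these windows and is not evidence that a factor bound there.

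MHC class II genes, through which macrophages and dendritic cells show antigen to T cells, were lower in mean without a call. Of 14 measured members of the presentation list, 13 had a lower mean, 6 without overlap, beside 8.32% of all genes, and the median difference was -0.62. It was -0.35 without the arrays that carry the labelling control. Dendritic cell markers were lower in mean for 12 of 15, with a median of -0.14, but only 1 was lower without overlap, near the share of all genes. Without those arrays 8 of 15 were lower, with a median of -0.01. Their part in the class II values was not tested. Xcr1, a chemokine receptor of cross-presenting dendritic cells, was 3.70, 2.46 and 3.66 in the intact group and 2.54, 2.02 and 1.90 at day 7 (-1.12 ± 0.30, adjusted p = 0.395), with overlap. H2-Eb1 was 9.16, 8.18 and 8.54 in the intact group and 8.13, 7.27 and 6.70 at day 7 (-1.26 ± 0.59), and H2-Ab1 was 10.04, 9.09 and 9.29 against 8.78, 8.45 and 7.64 (-1.19 ± 0.63). The groups were narrowly separate in both, and they overlapped for H2-Aa (-0.75 ± 0.77). Ciita, the master regulator of the class II genes, differed by -0.40 ± 0.22 near background. The costimulatory ligands diverged, with Cd86 at -0.66 ± 0.44 and Cd80 at 0.88 ± 0.28. Cd80 was 9.32, 9.24 and 8.91 in the intact group and 9.82, 10.48 and 9.82 at day 7, without overlap.

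**Figure D4:**
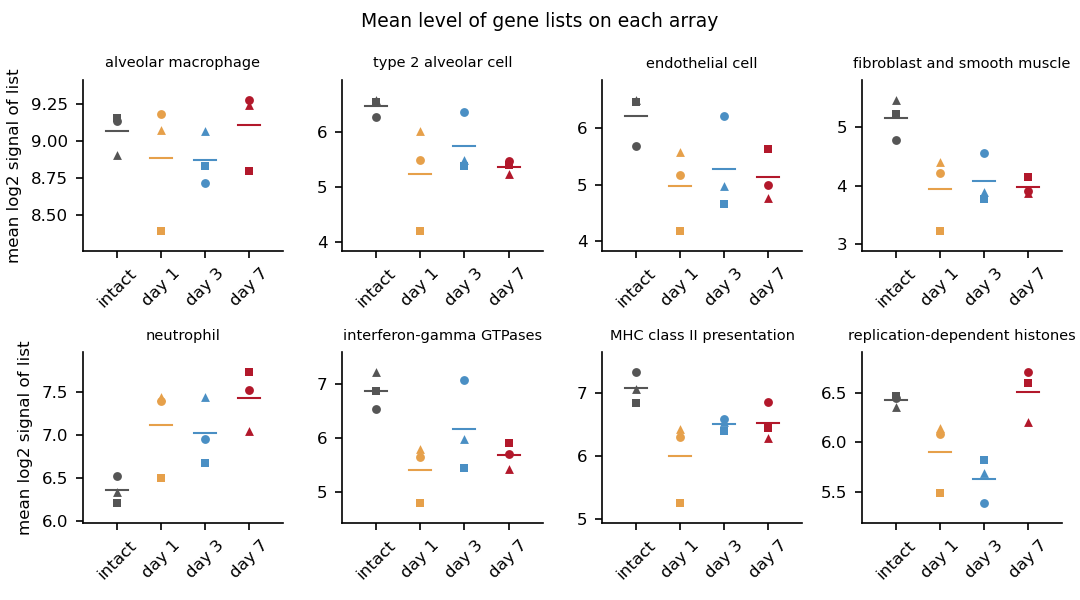
Mean log2 signal of the members of 8 gene lists (y axis) on each of the 12 arrays, by group; circle, square and triangle are replicates 1, 2 and 3 and lines are group means. Day 7 does not overlap intact for type 2 alveolar, endothelial, fibroblast, neutrophil and interferon-gamma GTPase lists, and overlaps it for the alveolar macrophage, MHC class II and histone lists.

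Inflammatory mediators gave small list medians at day 7. Tnf was 11.02, 10.92 and 10.71 against 10.95, 10.91 and 10.68 (-0.04 ± 0.26), and Il1b, interleukin-1 beta, 10.81, 10.29 and 9.96 against 10.34, 10.77 and 10.39 (0.15 ± 0.25), with overlap in both. Il6 was 10.25, 9.20 and 9.50 in the intact group and 9.43, 7.17 and 7.48 at day 7 (-1.63 ± 0.79), so that day 7 replicate 1 lay within the intact range and the other 2 lay below it. Il33, an alarmin of epithelium and stroma, was 3.88, 4.12 and 4.25 against 2.83, 2.93 and 3.27 (-1.07 ± 0.20, adjusted p = 0.154), at levels near background. Of 21 cytokines, 16 had a lower mean (median -0.10, and -0.25 without day 7 replicate 1), and of 26 chemokines 19 (median -0.26, from -0.42 without day 7 replicate 1 to -0.08 without day 7 replicate 3). Neither direction held without the arrays that carry the labelling control, when 10 of the 21 cytokines (median 0.01) and 11 of the 26 chemokines (median 0.06) had a lower mean. With that control as a block the medians were -0.01 and -0.05. Cxcl2 and Ccl3, which attract neutrophils and other leukocytes, differed by -0.27 and -0.18, while Cxcl13, the chemokine that draws B cells into follicles, was 4.28, 4.09 and 5.03 in the intact group and 6.96, 6.98 and 6.78 at day 7 (2.44 ± 0.64, adjusted p = 0.389). Its groups lay more than 1 unit apart.

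Growth factors known in liver regeneration were measured in the same cells. Of 33, 24 had a lower mean, 5 without overlap, beside 8.32% of all genes, and none passed. The median was -0.13, and -0.24 with the labelling control as a block. Hgf, hepatocyte growth factor, was 5.34, 5.31 and 5.35 in the intact group and 4.94, 4.84 and 4.43 at day 7 (-0.60 ± 0.34), a small separation around a tight intact group. Tgfb2, which restrains hepatocyte growth, was 3.28, 3.12 and 3.37 against 2.54, 2.44 and 2.53 (-0.76 ± 0.16, adjusted p = 0.256), at background level. Igf1, Ereg (epiregulin) and Inhba, a chain of activin, differed by 0.45 ± 0.41, 0.24 ± 0.32 and 0.43 ± 0.73 and overlapped between the groups.

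Acute phase and stress hormone genes showed a few single members apart. Among 17 acute phase genes, 10 had a higher mean, with a median of 0.03. Without overlap 3 were higher, Saa3 among them, and 3 lower, beside 5.83% and 8.32% of all genes. Saa3, the serum amyloid made by macrophages and epithelium, was 5.44, 6.18 and 6.11 in the intact group and 6.63, 8.21 and 7.88 at day 7 (1.66 ± 0.66, adjusted p = 0.776), without overlap. Fkbp5, a chaperone that glucocorticoids induce, was 6.29, 6.75 and 6.97 against 7.48, 7.72 and 8.17 (1.12 ± 0.34, adjusted p = 0.54), also without overlap. Several other glucocorticoid-induced genes did not follow it, with Tsc22d3 at -0.10, Per1 at -0.03, and Sgk1 and Errfi1 lower without overlap at -0.32 and -0.92. The list of 21 had 2 members higher without overlap, Fkbp5 among them, and 5 lower, beside 5.83% and 8.32% of all genes. Lower means were seen for 14 of the 21, and the median was -0.10. This ran from -0.33 without intact replicate 1 to -0.02 without intact replicate 3, and was -0.15 with the labelling control as a block and -0.18 without the arrays that carry it. Of 18 clock genes, 14 had a lower mean, 2 without overlap (median -0.13), beside 52.7% and 8.32% of all genes. Those 2 were Nr1d1 and Nr1d2, which encode the REV-ERB repressors and differed by -1.09 ± 0.37 and -0.90 ± 0.27. The clock median was -0.03 with the labelling control as a block. It was 0.03 without the arrays that carry it, when 8 of 18 were lower.

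Most genes of early activation and protein folding had slightly lower means. Of all genes, 52.7% had a lower mean and 8.32% were lower without overlap. For the immediate early genes the number with a lower mean depended on the labelling control. It was 15 of 26 with that control as a block (median -0.13) and 17 of 26 without the arrays that carry the control (median -0.12). Of 26 immediate early genes, 22 had a lower mean, 6 without overlap (median -0.20), led by Dusp2, a phosphatase of MAP kinases (-1.42 ± 0.34), and Ier3, an early response protein that limits cell death, which was 9.06, 9.37 and 9.70 against 8.16, 8.80 and 7.61 (-1.19 ± 0.31). Fos, Egr1 and Dusp1, at intact means of 9.7, 10.2 and 11.8, differed by -0.20, -0.10 and -0.09. Of 16 heat shock genes, 15 had a lower mean, 6 without overlap (median -0.38), and 10 of 16 lower without the arrays that carry the labelling control (median -0.21), with the small heat shock proteins Hspb1 and Cryab at -1.79 ± 0.34 and -1.28 ± 0.38. Both are also expressed by muscle and epithelium.

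Metabolic and housekeeping lists were near the median of all genes or depended on single arrays. Of 29 respiratory chain genes, 26 had a lower mean (median -0.27), but the median ran from -0.49 without day 7 replicate 1 to -0.08 without day 7 replicate 2 and was 0.15 with the labelling control as a block and 0.12 without the arrays that carry it. Ribosomal protein genes, 32 of 34 lower in mean, had a median of -0.20, which was -0.08 without day 7 replicate 2 and 0.19 with that block, when 5 of 34 were lower. Lysosome genes had a median of 0.01 (-0.20 without day 7 replicate 1, 0.17 without day 7 replicate 2), with 11 of 25 lower in mean, but 22 of 25 were higher with that block (median 0.31) and 21 of 25 without the arrays that carry the control (median 0.25). Scd1, the desaturase that makes monounsaturated fatty acids, was 7.56, 7.99 and 7.06 in the intact group and 6.51, 6.47 and 6.16 at day 7 (-1.16 ± 0.38), without overlap. In iron handling, ferroportin (Slc40a1) and Hmox1, the heme-degrading oxygenase, differed in opposite directions, with Hmox1 at -0.73 ± 0.48, and the storage chains Fth1 and Ftl1 at -0.05 and -0.25.

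Day 7 was then set against the earlier days directly, in contrasts that hold no intact array. No probe set passed against day 1 or day 3 (0% in each direction), with a smallest adjusted p of 0.573 and 0.114 by limma. Unadjusted p-values under 0.05 were seen for 846 probe sets that were higher at day 7 than at day 1 (3.81%) and 651 that were lower (2.93%). Against day 3 these were 450 (2.03%) and 688 (3.1%). Against day 1, none passed in any of the alternatives run. Against day 3, 3 passed without day 3 replicate 1, 7 with array weights and 4 without the 3 arrays of lowest separation.

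Replication-dependent histone genes, which are transcribed in S phase, had the largest median difference between day 3 and day 7 among the 49 lists. Their median difference was 1.00 against day 3 and 0.62 against day 1, beside -0.02 and 0.00 over all genes, and 0.10 against intact, with 15 of 45 lower than intact in mean. The median against intact ran from 0.01 without day 7 replicate 1, when 21 of 45 were lower, to 0.25 without day 7 replicate 3, when 7 were, and was 0.31 with the labelling control as a block. H1f3, a linker histone, was 4.19, 4.43 and 4.14 at day 3 and 5.34, 5.74 and 5.41 at day 7 (1.24 ± 0.19, adjusted p = 0.114), against 5.10, 4.69 and 4.51 in the intact group. H2ac10, a core histone, was 6.22, 6.68 and 6.65 at day 3 and 7.94, 8.07 and 7.57 at day 7 (1.34 ± 0.19, adjusted p = 0.114), against 7.48, 7.56 and 7.51 in the intact group. Day 7 was above day 3 on every array for both genes. Histone genes are near-identical copies, so signal may be shared between their probe sets: H3c14 and H3c15 have the same value on every array. Cell cycle genes had a median of 0.47 against day 3, 0.44 against day 1 and 0.13 against intact, which was -0.09 without day 7 replicate 1, 0.37 with that block and 0.64 without the arrays that carry the control. Kif11 and Kif23, kinesins of the mitotic spindle, differed from intact by 0.94 ± 0.33 and 0.58 ± 0.19, and Cdk1 by -0.57 ± 0.20.

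Single genes placed day 7 differently among the 3 days, each without a call. Ccr3 was 3.49, 2.50 and 3.21 at day 1, 4.98, 5.28 and 6.26 at day 3 and 4.96, 7.16 and 6.10 at day 7, a difference of 3.00 ± 0.48 from day 1 (adjusted p = 0.573) and 0.56 ± 0.48 from day 3. Cd80 was 8.30, 8.20 and 8.93 at day 1 and 10.05, 9.11 and 9.34 at day 3, so day 7 lay above day 1 by 1.56 ± 0.28 (adjusted p = 0.573). In both genes day 7 was apart from day 1 and overlapped day 3. Cdo1, cysteine dioxygenase, was 6.62, 7.11 and 6.54 at day 3 and 4.68, 4.28 and 4.14 at day 7 (-2.39 ± 0.35, adjusted p = 0.114), and Cd63, a tetraspanin of lysosomes and granules, was 9.45, 9.60 and 9.23 at day 3 and 8.43, 7.68 and 8.36 at day 7 (-1.27 ± 0.26, adjusted p = 0.33). Reg3g, a secreted antibacterial lectin of epithelium, was 5.46, 3.62 and 5.37 at day 1 and 3.22, 2.55 and 2.65 at day 7 (-2.01 ± 0.44, adjusted p = 0.575). For Mrgpra2b, at 8.82, 7.81 and 9.25 on day 1 and 8.02, 7.87 and 8.86 on day 3, the day 7 arrays overlapped both.

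**Figure D5:**
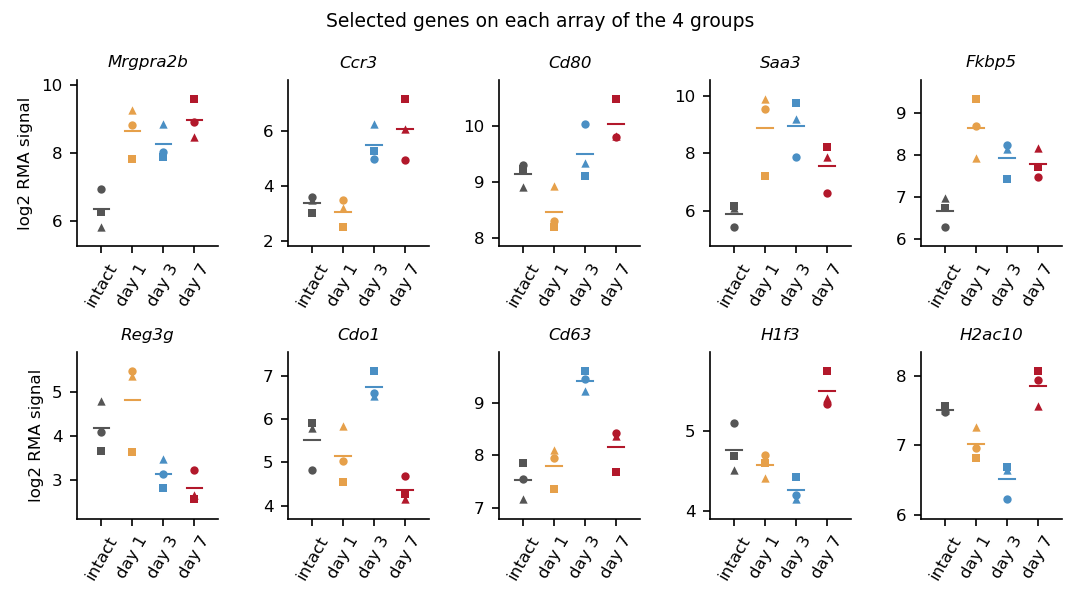
Log2 RMA signal (y axis) of 10 genes on each array, by group; circle, square and triangle are replicates 1, 2 and 3 and lines are group means. Histone genes H1f3 and H2ac10 are higher at day 7 than at day 3 on every array and Cdo1 and Cd63 lower, with differences of 1.24, 1.34, -2.39 and -1.27.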

How the data were processed

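RNA of Siglec-F sorted alveolar macrophages was hybridised to 12 arrays, 3 in each of 4 groups. The authors deposited 1 log2 value per probe set and array; the submitters' processing notes name RMA and the Transcriptome Analysis Console. The log2 scale follows from the range of the values, and the genome build is not given in the sources used here. Of 28846 probe sets, 6640 controls were left out and 22206 tested, of which 19572 had exactly 1 gene symbol in the platform annotation. For lists the probe set of highest mean stood for each of 19505 genes.

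One limma 3.58.1 model under R 4.3.3 held all 12 arrays with group as its only term and default moderation; each contrast was tested two-sided at an adjusted p of 0.05, with the Benjamini-Hochberg method applied over 22206 probe sets. Where the labels do not say that arrays come from separate animals, p-values measure only the spread between arrays. The code was tested on simulated data. The members and lists were chosen with earlier results of these data known: 49 lists, 1082 entries, 980 measured, matched by exact symbol. Lists are described by counts and medians without a test.

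Named genes were those past the threshold without overlap (up to 15 each way, filled to 10 by the smallest p), up to 4 per list by smallest p, 5 each way against day 1 and day 3, and fixed genes; predicted genes, olfactory-type receptors, small RNAs and antigen receptor segments were left out. Further list members given as contrast within a list were chosen after their values were seen. Promoter sequences are RefSeq's for GRCm38.p6. Alternatives were other moderation, array weights, a replicate block, further normalization, filters, the 2 groups alone and each array left out. Leaving out arrays of low separation or with the labelling control, and that control as a block, were added after the data were seen.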

Additional observations from a re-analysis of the deposited data

Results flagged for a closer look

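Control probe sets that no comparison used were higher than on the intact arrays in some or all day 7 samples. For the labelling controls dap, phe and thr this held on day 7 replicates 2 and 3, with highest values of 7.77, 5.47 and 5.73, where the highest intact values were 2.40, 2.42 and 2.41. Day 7 replicate 1 had 2.38, 2.10 and 2.23, none above the highest intact value. The hybridisation controls bioC and bioD were above the intact arrays on all 3 day 7 arrays, and reached 9.91 and 11.25, where the highest intact values were 8.85 and 10.15. These are values of controls added to the samples or the hybridisation, and their part in the gene differences was not tested beyond the alternatives given under the processing.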

How the results depend on the processing

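Day 7 against intact gave 4 calls, and 4 to 6 with trend or robust moderation, quantile normalization, median centring, 1 probe set per gene or the labelling control as a block. It gave 8 at an adjusted p under 0.10, 48 on the 2 groups alone, 402 with array weights (83 higher, 319 lower) and 280 without the 3 arrays of lowest separation. It gave 0 among the 5990 bright probe sets (323 with an unadjusted p under 0.05) and 0 without the 3 arrays carrying the labelling control, which leaves 1 day 7 array assumed to vary like the others (1436). Leaving out single arrays gave 0 to 18. With the replicate block there were 8 calls. Dpt was not among the calls with the replicate block, nor among those with the labelling control as a block. Same-numbered arrays did not deviate together (r = 0.0901, -0.0458 and -0.0466), so the numbers were not taken to pair samples. Day 7 against day 1 gave 0 throughout; day 7 against day 3 gave 0, but 7 with array weights, 4 without the arrays of lowest separation and 0 to 3 without single arrays. Of 22 alternatives, Sftpd passed in 18, Col3a1 in 15, Mxra8 in 12 and Dpt in 11, and all 4 stayed lower in each. Except where stated, the cause of these changes was not tested. Levels near the intron controls limit the folds of the genes that fell.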

Other observations

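Receptors for cytokines, which the account of the mediators leaves out, divided between the groups without a call at day 7. Of 31 interleukin and growth factor receptors, 16 had a lower and 15 a higher mean (median 0.00, and 0.23 with the labelling control as a block). Without overlap 5 were higher and 6 lower, beside 5.83% and 8.32% of all genes. Among the 5 higher were Il5ra, given above, and Csf3r, the receptor for G-CSF, at 8.21, 8.34 and 7.92 against 9.20, 9.67 and 8.68 (1.03 ± 0.35). Csf2ra, a chain of the GM-CSF receptor, was also among them (0.50 ± 0.23). Among the 6 lower were Il2rb, an interleukin-2 receptor chain of lymphocytes (-1.17 ± 0.32), and Il1r1, the signalling interleukin-1 receptor, at 3.85, 3.93 and 4.17 against 3.06, 3.11 and 3.28 (-0.83 ± 0.21). Il1r2, the decoy receptor for interleukin-1, differed by 1.01 ± 0.52 with overlap.

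Sensors of microbes are a further list without a call. Tlr4, the receptor for lipopolysaccharide, was 7.18, 6.98 and 6.98 in the intact group and 7.66, 7.55 and 7.43 at day 7 (0.50 ± 0.15, adjusted p = 0.519), without overlap. Tlr4 was the only 1 of 19 Toll-like receptors and adaptors higher without overlap, a share near the 5.83% of all genes. A higher mean was seen for 15 of the 19, beside 47.3% of all genes, with a median of 0.08. It was -0.03 without day 7 replicate 1, 0.21 without day 7 replicate 2, 0.34 with the labelling control as a block and 0.45 without the arrays that carry it. C3ar1, the receptor for complement C3a, was 5.08, 5.17 and 6.02 against 6.46, 6.90 and 6.34 (1.14 ± 0.48). Among matrix genes, Mmp2, Timp3 and Sparc were lower without overlap (-1.35, -1.43 and -1.84), while Adam8, a protease of leukocytes, was higher (1.16). In that list 8 of 21 were lower and 3 higher without overlap, beside 8.32% and 5.83% of all genes. Lower means were seen for 13 of the 21 (median -0.23). With the labelling control as a block 13 of 21 were higher instead (median 0.09).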
